A study of Mus musculus with 48 samples.

Results

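The genes that encode the initiation and elongation factors of cytoplasmic translation were followed in mouse cerebral cortex across 4 RNA fractions and 3 ages. Members were the protein-coding genes of the mouse GENCODE annotation whose symbol begins with Eif or Eef and a digit, pseudogenes left out, and the rule used no measured value. It found 67 genes among the 48526 genes of the count table. They comprise 7 elongation factor genes, 5 genes for enzymes that modify elongation factors, 4 for eIF2, 5 for its exchange factor eIF2B, 4 eIF2 kinases, 14 eIF3 subunits, 12 genes of the eIF4 cap-binding machinery and its relatives, 4 eIF4E-binding proteins, 10 genes that act in scanning, start site choice, subunit joining or related steps, and the 2 eIF5A genes. Grouping by symbol places Eef1e1, of the tRNA synthetase complex, with the elongation factors. It places Eif4a3, of the exon junction complex, and Eif4g2, which lacks the eIF4E-binding site, with the eIF4 genes.

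Wild-type male C57BL/6JRj mice were sampled at 3 weeks (3w), at 5 months (5m, given as 6 months in the sample labels) and at 18 months (18m, 18 to 19 months in the protocol), with 4 mice at each age. From the cortex of each mouse a total homogenate (TH) and a synaptosome fraction (SYN, SG in the labels), the pinched-off nerve terminals with attached postsynaptic membrane, were prepared. RNA was sequenced from each of them before (input) and after pelleting of ribosomes through a sucrose cushion (SC), so every mouse gave 4 libraries and the series holds 48. Mice are numbered as in the labels, 187 to 190 at 3w, 191 to 194 at 5m and 195 to 198 at 18m, and values of a group are listed in that order. None of the animals carried a transgene or was treated, and SC libraries report RNA that sediments with ribosomes, which includes RNA in other heavy particles.

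Translation of most mRNAs begins when eIF4E binds the cap and, with the scaffold eIF4G and the helicase eIF4A, recruits the small ribosomal subunit. That subunit carries eIF3 and the initiator tRNA held by eIF2, and eIF2B recharges eIF2 with GTP. Kinases that sense stress phosphorylate eIF2 and slow this recharging, and hypophosphorylated 4E-BPs, released from mTORC1 control, keep eIF4E from eIF4G. During elongation eEF1A delivers charged tRNA, the eEF1B complex recharges eEF1A, and eEF2 moves the ribosome by a codon until its kinase eEF2K switches it off. The paralogue Eef1a2 replaces Eef1a1 in mature neurons and muscle. In neurons the machinery also works in dendrites and axons, where eEF2K, 4E-BP2 and the eIF2 kinases are known as regulators of synaptic plasticity.

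Many mRNAs of this machinery belong to the 5′ terminal oligopyrimidine (TOP) class, which starts with a C and a run of pyrimidines read by the mTORC1 effector LARP1. Of the members, 9 were taken as TOP mRNAs from textbook knowledge (Eef1a1, Eef1b2, Eef1d, Eef1g, Eef2, Eif3e, Eif3f, Eif3h and Eif4b). RefSeq start sequences (GRCm38.p6) were matched for 51 of the 67 members. A run of a C followed by at least 6 bases that are each C or T, on the gene's strand only and with its first base between 15 bases before and 35 bases after the annotated start, was searched for. It was found in 21 of the 51 members (41.2%), in 26.0% of 27025 genes and in 46 of 67 ribosomal protein genes with a start sequence (68.7%). It was found in 4 of the 5 TOP members with a start sequence and in 17 of the other 46 members (37.0%), and Eef1b2 has none in this window. A match is a description of letters and not of a transcript's measured start. The windows below show the run in capitals after 6 bases of context. They cover 3 TOP members, the second eEF1A gene and the X- and Y-linked genes for eIF2 gamma. In Eif4b and Eef1a2 the run starts 10 and 17 bases after the annotated start, so it is not at the 5′ end. In the other windows it starts within 5 bases of the annotated start.
Eef1a1, chr9:78481706-78481735 (minus strand): gctccgCCCTCTTCCCgagggtgggggaga
Eif3f, chr7:108934405-108934434 (plus strand): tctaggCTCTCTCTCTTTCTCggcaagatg
Eif4b, chr15:102073777-102073806 (plus strand): gcgccaCCCCCTCgcgctgctttacgaacc
Eef1a2, chr2:181156975-181157004 (minus strand): ctggttCTCTCCCTCgctccggtgcatcat
Eif2s3x, chrX:94212629-94212658 (minus strand): cattttCCTTTTCTCTCCgagcaagatggc
Eif2s3y, chrY:1010590-1010619 (plus strand): cagccaCTTCCTTCTTTCgtgagcaagatg

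Libraries held 1780267 to 18590040 counts, with a median of 3756951 in input SYN, 7298371 in SC SYN, 8643431 in SC TH and 10815834 in input TH, so input SYN values are the least precise. Levels are given as CPM, counts brought to a common library size, scaled over all 48 libraries by TMM, a method which assumes that most genes do not differ. SYN was high in synaptic and also in glial markers. Summed over each list at 5m, 10 synaptic markers gave 26711 to 27823 CPM in input SYN against 7872 to 9361 in input TH, 8 astrocyte markers 13369 to 14437 against 3764 to 4322, and 8 microglia markers 539 to 704 against 180.3 to 207. The 8 neuronal markers gave 6221 to 6555 against 2526 to 2879, 8 endothelial markers 9.42 to 16.7 against 184 to 279.8, and 6 nuclear RNAs 2264 to 3124 against 18520.1 to 18924. The 8 oligodendrocyte markers gave 3306 to 3558 against 2106 to 2387, and 5 erythrocyte markers 22.0 to 49.2 against 142 to 300. All these sums rest on TMM. The part that these cell types play in the differences between SYN and TH was not tested. Fewer cells of a type and less RNA per cell cannot be told apart in these bulk samples.

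Elongation factors dominated the family. Eef2, Eef1a1 and Eef1a2 held 14.1%, 13.3% and 12.5% of all counts on members, 39.9% together. Per kilobase of exon, the mean level over the 12 groups was 391 CPM per kb for Eef1a2, 357 for Eef1a1 and 302 for Eef2. The order differed by fraction. Eef1a1 was first of the members in input TH and SC SYN at all 3 ages and Eef1a2 in SC TH, while in input SYN Eef1a2 was below both Eef1a1 and Eef2. The next in order were Eef1g, a scaffold subunit of eEF1B, at 64.8 CPM per kb and Eif1, the guardian of start codon choice, at 63.5. Eif5a, whose hypusine-bearing product eases elongation past difficult codons, followed at 53.5. The leading initiation factors of the cap-binding machinery were Eif4b at 49.9, the helicase Eif4a2 at 48.0 and the scaffold Eif4g1 at 44.8 CPM per kb. At the low end, the 4E-BP gene Eif4ebp1 stood at 1.01 and Eif2b3, the gamma subunit of eIF2B, at 0.895 CPM per kb.

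The eIF4E paralogue Eif4e1b had no count in any of the 48 libraries. Eif4ebp3 and the methyltransferase gene Eef1akmt3 were near the limit of detection, with at most 2 counts of Eef1akmt3 in a SYN library, and no fold is given for them. After the filter on low counts, 64 members were tested in each SC age comparison and in SC SYN against SC TH, 62 in input SYN, 64 in SC SYN against input SYN, and 65 where input TH took part. For 19 members, near-identical gene copies could have taken or lent reads. Annotated copies of Eef1a1 held 11.7% of the counts on it and them together, those of Eif1 19.6%, of Eif2s3x 24.9%, of Eif4a1 26.2% and of Eef1g 31.6%, and Eif3j1 and Eif3j2 are copies of each other. Values of these genes are therefore uncertain by as much as such reads may be misplaced, and 28 members overlap exons of another gene. Counting took no account of strand, so antisense partners cannot be told apart.

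As a share of all counts, members took 0.612 to 0.654% in input TH and 0.773 to 0.835% in SC TH. The shares were 0.525 to 0.604% in input SYN and 0.591 to 0.707% in SC SYN. Every input SYN library was thus below every input TH library in the share of counts, although the summed TMM-scaled level of the members in input SYN (6621 to 6809 CPM at 5m) was above that in input TH (5031 to 5116 CPM). The direction of the family as a whole between SYN and TH therefore depends on the scaling, and the genes below are described with that in view.

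**Figure D1:**
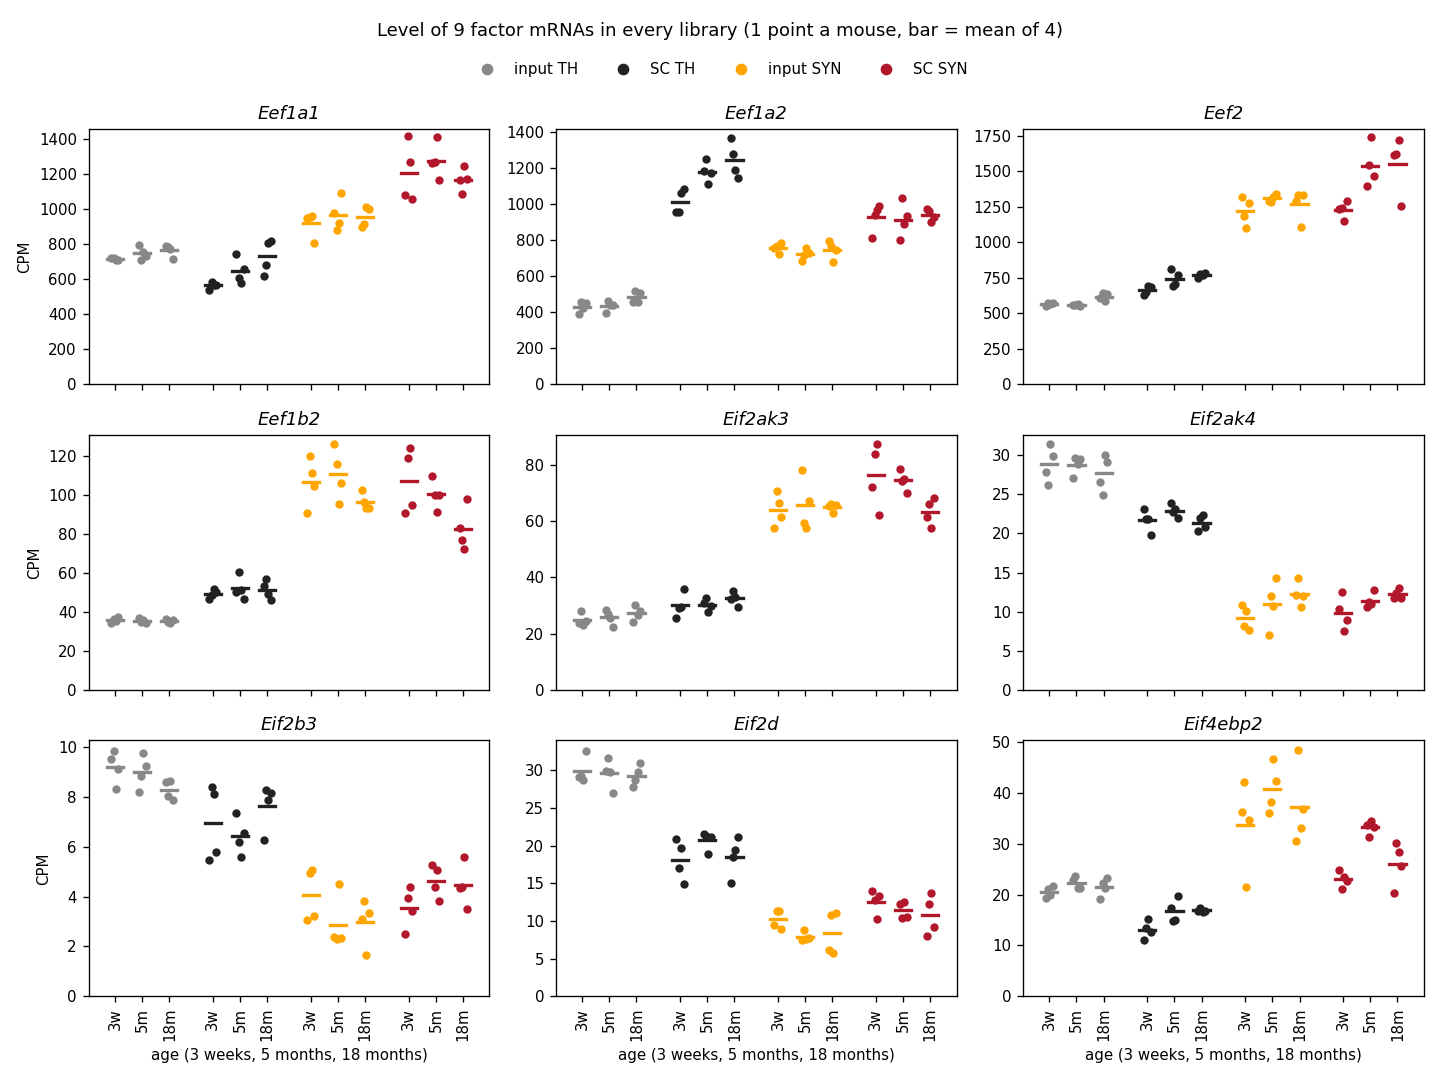
TMM-scaled level in CPM (vertical axes) of 9 member genes in all 48 libraries, by fraction and age; each point is 1 mouse. Eef1a2 has its highest points in SC TH, where its 5m libraries run from 1111 to 1251 CPM, and Eef1a1 its highest in SC SYN, from 1164 to 1411 CPM at 5m.

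The first question was which factor mRNAs are relatively abundant in synaptosomes. In input RNA, 23, 21 and 22 of 65 members were higher in SYN than in TH at 3w, 5m and 18m, and 17, 16 and 10 were lower, by edgeR's quasi-likelihood test with Benjamini-Hochberg adjustment over all genes (adjusted p under 0.05). Over all genes tested, 71%, 72.7% and 72.3% passed, and of the members tested 61.5%, 56.9% and 49.2%. Of all genes 31.7%, 32.6% and 32.9% were higher in input SYN and 39.3%, 40.1% and 39.4% lower. The median log2 fold change of members was 0.12, 0.04 and 0.10, against -0.18, -0.18 and -0.12 over all genes. In SC RNA, 13, 13 and 12 of 64 members were higher in SYN and 13, 23 and 15 lower, where 63.5%, 67.8% and 62.1% of all genes passed. Of all genes 31.1%, 32.1% and 29.9% were higher in SC SYN and 32.4%, 35.8% and 32.2% lower. The medians of members in SC were 0.06, -0.10 and -0.15 against -0.04, -0.09 and -0.07 over all genes. Counts by subgroup and list below are to be read beside these shares. The protocol describes a syringe step and clearing by centrifugation before the cushion for TH lysates alone. SC SYN and SC TH thus also differ in handling, and the part of this was not tested.

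When libraries were scaled by their total counts in place of TMM, the median of all genes moved to -0.75, -0.83 and -0.70 in input and to -0.59, -0.68 and -0.60 in SC. For paired fractions the correction for GC content and length was fitted with the mouse as a block. Under library size members split into 7, 5 and 6 higher and 41, 51 and 47 lower at the 3 ages in input, and into 8, 8 and 4 higher and 46, 51 and 49 lower at the 3 ages in SC. The medians of members under library size were -0.46, -0.62 and -0.48 in input and -0.49, -0.69 and -0.68 in SC. The shares of all genes called under this scaling are not given here, so these counts do not set the members apart. Of the members, 4 were called higher in input SYN at all 3 ages under TMM, library size, DESeq2 size factors and the correction for GC content and length alike, namely Eef1b2, Eef1g, Eef2 and Eif2ak3. In SC the members higher at all ages under these 4 scalings were Eef1g, Eef2, Eif2ak2 and Eif2ak3. Those lower at all ages were Eif2ak4, Eif2b3, Eif2d and Eif4e2 in both input and SC, with Eef1akmt3, Eif2s3y and Eif4a1 besides in input. The Eef1akmt3 calls rest on very few counts, near the limit of detection. In input 7, 14 and 9 members were called in opposite directions by different scalings at the 3 ages, and in SC 9, 7 and 4. DESeq2 gave 21 higher and 15 lower in input at 18m.

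Most elongation factor genes were higher in SYN under TMM. Of 7 elongation factor genes, input SYN against TH gave 5, 6 and 5 higher and none lower of 7 tested, with medians of 0.82, 0.74 and 0.63 on the log2 scale, and SC gave 4, 5 and 4 higher and 0, 2 and 2 lower of 7 tested. Those lower in SC at 5m and 18m were Eef1a2 and Eef1e1. Eef2, the translocase gene, stood at 1293, 1287, 1323 and 1338 CPM in the 4 input SYN libraries at 5m and at 563, 558, 565 and 552 CPM in input TH. All SYN libraries were above all TH libraries. The log2 fold changes at 3w, 5m and 18m were 1.11, 1.24 and 1.04 (SE 0.07, 0.07 and 0.07, adjusted p = 2.78e-14, 2.56e-15 and 9.5e-14), and in SC RNA 0.94, 1.07 and 1.04 (SE 0.09, 0.09 and 0.09, adjusted p = 4.01e-09, 4.59e-10 and 1.19e-09).

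Eef1b2, the nucleotide exchange subunit of eEF1B, had the largest input fold change of the members called higher. Its level at 5m was 126, 116, 95.1 and 106 CPM in input SYN and 37.0, 34.8, 36.1 and 34.6 CPM in input TH. The log2 fold changes were 1.57, 1.65 and 1.45 (SE 0.09, 0.09 and 0.08, adjusted p = 2.77e-15, 6.99e-16 and 7.38e-15) in input and 1.16, 0.97 and 0.71 (SE 0.11, 0.11 and 0.11, adjusted p = 2.02e-09, 2.63e-08 and 4.34e-06) in SC, the last lost under library size (adjusted p = 0.127). Eef1g stood at 256, 241, 224 and 239 CPM in input SYN and 102, 105, 96.1 and 102 in input TH at 5m. It gave 1.24, 1.25 and 1.04 in input (SE 0.07, 0.07 and 0.07) and 0.99, 0.93 and 0.83 in SC (SE 0.10, 0.10 and 0.10), all called and with the reservation about its copies. Eef1b2 shares exonic sequence with Ndufs1 on the opposite strand.

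The eEF1A genes differed from each other. Eef1a2 stood at 681, 716, 753 and 728 CPM in input SYN at 5m against 398, 464, 438 and 437 in input TH, but at 802, 1031, 886 and 932 CPM in SC SYN against 1179.6, 1251, 1111 and 1171 in SC TH. The SYN libraries were thus all higher in input and all lower in SC. Its log2 fold changes were 0.82, 0.74 and 0.63 (SE 0.07, 0.07 and 0.07, adjusted p = 6.45e-11, 5.79e-10 and 9.67e-09) in input and -0.08, -0.34 and -0.37 (SE 0.09, 0.09 and 0.09, adjusted p = 0.445, 0.00105 and 0.000621) in SC. Library size lost its input calls at 5m and 18m (adjusted p = 0.261 and 0.395), the GC and length correction that at 5m (adjusted p = 0.0955), and both called it lower in SC at 3w. Eef1a1 stood at 1261, 1272, 1411 and 1164 CPM in SC SYN at 5m against 743, 609, 581 and 659 in SC TH, with no overlap. Its log2 fold changes were 1.14, 1.00 and 0.71 (SE 0.11, 0.11 and 0.11, adjusted p = 1.18e-09, 1e-08 and 3.37e-06) in SC and 0.37, 0.38 and 0.33 (SE 0.07, 0.07 and 0.07, adjusted p = 7.61e-05, 4.89e-05 and 0.000238) in input. Library-size scaling turned the input values to -0.20, -0.28 and -0.24, all called lower, and lost the SC call at 18m (adjusted p = 0.126).

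The ratio of the 2 eEF1A genes within a library does not depend on scaling between libraries. The mean log2 ratio of Eef1a1 to Eef1a2, both in CPM per kb, was 0.48 ± 0.11, 0.53 ± 0.16 and 0.41 ± 0.14 (SD, n = 4 mice each) in input TH at 3w, 5m and 18m. In SC TH it was -1.10 ± 0.10, -1.13 ± 0.16 and -1.03 ± 0.31. In input SYN it was 0.02 ± 0.16, 0.17 ± 0.15 and 0.10 ± 0.18, and in SC SYN 0.12 ± 0.20, 0.23 ± 0.20 and 0.06 ± 0.12. All 12 SC TH libraries lay between -1.41 and -0.74, below all other libraries of the series, the lowest of which was at -0.21. Pelleting through the cushion was thus accompanied by a lower Eef1a1 to Eef1a2 ratio in TH, and in SYN the ranges before and after pelleting overlapped at each age. Reads placed on Eef1a1 copies would lower every one of these ratios.

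**Figure D2:**
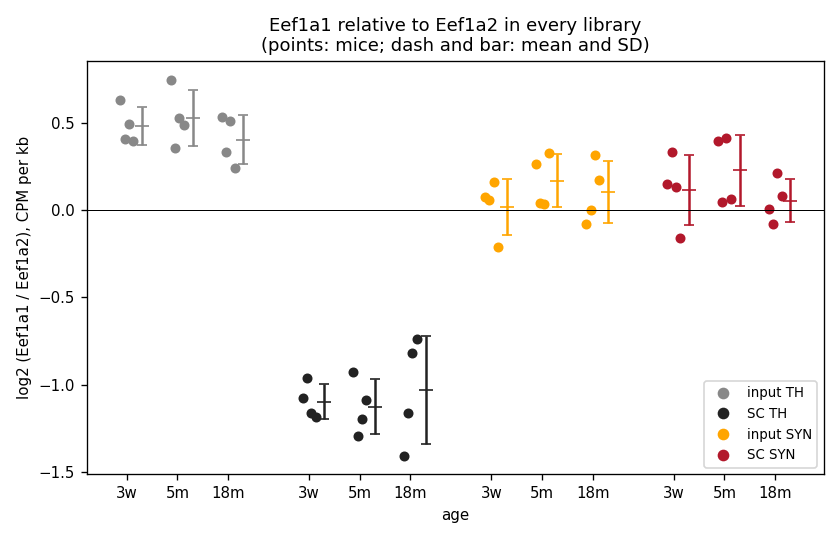
Log2 ratio of Eef1a1 to Eef1a2, each in CPM per kb of exon (vertical axis), in every library by fraction and age (horizontal axis); points are mice, dashes the mean and bars the SD of 4 mice. The 12 SC TH libraries lie between -1.41 and -0.74, apart from the other 36.

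Among the genes that modify elongation factors, Eef2k encodes the calcium-regulated kinase that inactivates eEF2. Under TMM its fitted value was lower in SYN in input and higher in SYN in SC at all 3 ages, with few calls. Its level at 5m was 34.4, 43.7, 42.6 and 29.4 CPM in input SYN, 41.6, 39.2, 44.2 and 38.2 in input TH, 52.6, 44.9, 50.0 and 48.9 in SC SYN and 40.2, 40.3, 49.4 and 40.5 in SC TH. The log2 fold changes of SYN over TH were -0.35, -0.13 and -0.22 in input (adjusted p = 0.0079, 0.28 and 0.0579) and 0.15, 0.23 and 0.19 in SC (adjusted p = 0.179, 0.0295 and 0.0666). The calls were input at 3w, lower, and SC at 5m, higher, and they were lost without mouse 188 (adjusted p = 0.0627) and without mouse 190, 191, 192, 194 or 198 (adjusted p = 0.0652 to 0.168). Library-size scaling turned the SC values to -0.40, -0.36 and -0.34, all called lower, and the SC call at 5m was also lost without the filter on low counts (adjusted p = 0.264) and with the GC and length correction (adjusted p = 0.31). In input the 5m and 18m values were called lower by DESeq2, under library size, and with the GC and length correction and the mouse as a block. The input value at 18m also passed without mouse 194 or 197 (adjusted p = 0.0388 to 0.0448). Mice of other ages enter a test through the shared estimate of the spread.

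The 4 eIF2 kinases went separate ways. Eif2ak3 encodes PERK, the kinase of the endoplasmic reticulum, and stood at 78.2, 59.4, 57.4 and 67.1 CPM in input SYN at 5m against 28.4, 27.0, 25.6 and 22.4 in input TH. It stood at 78.5, 74.3, 74.8 and 70.0 CPM in SC SYN against 31.1, 32.9, 27.7 and 29.9 in SC TH, and all SYN libraries were above all TH libraries. The log2 fold changes were 1.37, 1.36 and 1.26 (SE 0.11, 0.10 and 0.10, adjusted p = 3.57e-12, 2.74e-12 and 5.22e-12) in input and 1.40, 1.32 and 0.99 (SE 0.11, 0.10 and 0.10, adjusted p = 4.3e-11, 6.17e-11 and 1.28e-08) in SC.

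Eif2ak4, which encodes the amino acid sensor GCN2, was lower in SYN, at 7.08, 12.0, 10.8 and 14.4 CPM in input at 5m against 27.0, 29.6, 28.8 and 29.5 in TH. Its log2 fold changes were -1.62, -1.37 and -1.15 (SE 0.15, 0.14 and 0.12, adjusted p = 1.66e-10, 1.62e-09 and 3.93e-09) in input and -1.09, -0.98 and -0.77 (SE 0.12, 0.11 and 0.11, adjusted p = 3.57e-08, 3.67e-08 and 2.25e-06) in SC. Eif2ak1, which encodes the heme-regulated and mitochondrial stress kinase HRI, gave 0.63, 0.53 and 0.60 in input, all called (adjusted p = 8.17e-08, 1.31e-06 and 6.19e-08) and none of them under library size (0.06, -0.12 and 0.03). Eif2ak2, the gene for the double-stranded RNA sensor PKR, gave 1.12, 1.42 and 1.02 in SC, all called (adjusted p = 4.26e-05, 5.22e-07 and 5.16e-05), from 11.0, 7.32, 8.49 and 10.2 CPM in SC SYN at 5m and 3.52, 3.59, 4.02 and 2.83 in SC TH. In input its values were 0.23, 0.36 and 0.33 and not called. The summed microglia and astrocyte markers stood higher in the same SYN libraries, and their part in these kinase differences was not tested.

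eIF2 itself is made of 3 subunits. The gamma subunit is encoded by an X-linked and a Y-linked gene in mice, and these differed. Eif2s3y stood at 3.04, 4.60, 4.93 and 5.01 CPM in input SYN at 5m against 26.2, 24.2, 24.8 and 22.8 in input TH, and Eif2s3x at 81.6, 83.8, 93.8 and 68.5 against 52.0, 56.4, 59.1 and 54.4 CPM. The log2 fold changes of Eif2s3y were -2.56, -2.48 and -2.26 (SE 0.22, 0.21 and 0.20, adjusted p = 3.77e-11, 2.24e-11 and 5.58e-11) and those of Eif2s3x 0.78, 0.56 and 0.93 (SE 0.12, 0.12 and 0.11, adjusted p = 1.64e-06, 0.000126 and 3.32e-08). Under library-size scaling Eif2s3y remained called lower at all 3 ages and Eif2s3x was called higher at 18m alone. In SC, Eif2s3y gave -1.19, -1.71 and -0.67, all called, and the 3w and 18m values turned to 0.079 and 0.05 with the correction for GC content and length.

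Eif2s1, the alpha subunit that carries the phosphorylation site, stood at 9.11, 12.0, 9.42 and 8.01 CPM in input SYN at 5m and 12.1, 14.3, 12.4 and 13.4 in input TH. Its log2 fold changes were 0.25, -0.45 and 0.10 in input (adjusted p = 0.214, 0.0352 and 0.593) and -0.17, -0.53 and -0.19 in SC (adjusted p = 0.349, 0.00268 and 0.256), called at 5m only in each. With the correction for GC content and length and the mouse as a block, the input value at 5m turned to 0.077. The same setting lost the SC call at 5m (adjusted p = 0.572) and turned the SC value at 3w to 0.31, called higher (adjusted p = 0.0413), whereas library size called it lower in SC at 3w and 18m and turned input at 18m to -0.47. The input call at 5m was also lost without mouse 191, 193 or 194 (adjusted p = 0.0646 to 0.169).

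Of the 5 eIF2B subunits, input gave none higher and 2, 1 and 2 lower of 5 tested. Eif2b3 stood at 2.36, 2.30, 4.49 and 2.34 CPM in input SYN at 5m against 8.19, 8.83, 9.77 and 9.24 in input TH, the first from 5 to 10 counts per library. Its log2 fold changes were -1.18, -1.67 and -1.39 (SE 0.20, 0.22 and 0.18, adjusted p = 8e-06, 9.57e-08 and 1.13e-07) in input and -0.93, -0.47 and -0.72 (SE 0.21, 0.18 and 0.17, adjusted p = 0.00038, 0.0208 and 0.000865) in SC. The SC call at 5m was lost without mouse 191 or 194 (adjusted p = 0.0561 to 0.134). Eif2d encodes a factor that can place the initiator tRNA without eIF2 and also acts in recycling. It stood at 7.42, 8.74, 7.63 and 7.68 CPM in input SYN at 5m against 29.9, 31.7, 29.8 and 27.0 in input TH. It gave log2 fold changes of -1.53, -1.91 and -1.70 (SE 0.15, 0.15 and 0.13, adjusted p = 3.32e-10, 7.98e-12 and 3.57e-12) in input and -0.49, -0.84 and -0.72 (SE 0.16, 0.15 and 0.15, adjusted p = 0.00992, 2.09e-05 and 0.000183) in SC.

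The 14 eIF3 subunit genes gave 8, 6 and 7 higher and 3, 2 and 1 lower of 14 tested in input and 3, 3 and 4 higher and 0, 0 and 1 lower of 14 tested in SC. Eif3f, a subunit of the outer part of eIF3, was higher in input at all ages, with 0.82, 1.13 and 0.76 (SE 0.12, 0.11 and 0.11), and in SC with 0.85, 1.01 and 0.60 (SE 0.13, 0.12 and 0.12). Its level at 5m was 84.0, 92.5, 94.2 and 103 CPM in input SYN and 43.2, 43.8, 44.0 and 40.9 in input TH. Library-size scaling kept the Eif3f calls at 3w and 5m in each fraction. Eif3j2 gave 1.12, 0.91 and 1.14 in input, but it shares its sequence with Eif3j1 and reads of the pair may be misplaced. Under TMM Eif3a and Eif3h were also called higher in input at all ages, but under library size neither was, and at 5m both were called lower (-0.31 and -0.33). Eif3m was called lower at all ages under TMM with values of -0.76, -0.80 and -0.76, and the GC and length correction turned it to 0.54, 0.60 and 0.34, all called higher, so its direction depends on the scaling.

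The genes of the eIF4 cap-binding group were split in input, and under TMM those that passed in SC were lower. They gave 3, 3 and 4 higher and 4, 4 and 3 lower of 11 tested in input and none higher and 5, 8 and 2 lower of 11 tested in SC. Of all genes 32.4%, 35.8% and 32.2% were lower in SC. Eif4a3 was among those lower in SC at 5m. Eif4g2, not called in SC at 3w under TMM, was called in opposite directions there by other scalings. Eif4e, the cap-binding protein, stood at 47.6, 43.3, 39.5 and 36.7 CPM in input SYN at 5m and 45.6, 54.1, 53.8 and 53.4 in input TH, with log2 fold changes of -0.16, -0.30 and 0.07 (adjusted p = 0.294, 0.0428 and 0.643). The call at 5m was lost without mouse 192, 193 or 194 (adjusted p = 0.0977 to 0.204) and turned to 0.11 with the correction for GC content and length and the mouse as a block. In SC its values were -0.47, -0.56 and -0.25 (adjusted p = 0.00709, 0.00121 and 0.117), and the last passed without mouse 198 (adjusted p = 0.0377). With the GC and length correction the SC calls at 3w and 5m were lost (adjusted p = 0.482 and 0.148). Eif4e2, which encodes the repressive cap-binding homologue 4EHP, was lower throughout, at 27.1, 26.3, 25.9 and 23.5 CPM in SC SYN and 42.8, 46.4, 40.5 and 41.3 in SC TH at 3w. It gave -0.39, -0.60 and -0.49 in input (SE 0.10, 0.10 and 0.09) and -0.68, -0.73 and -0.55 in SC (SE 0.09, 0.09 and 0.09).

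The 4E-BPs, which keep eIF4E from eIF4G, were unlike each other. Eif4ebp2, the main 4E-BP of the brain, stood at 33.6, 31.4, 34.6 and 33.4 CPM in SC SYN at 5m against 17.3, 14.8, 15.0 and 19.7 in SC TH. Its log2 fold changes were 0.77, 0.88 and 0.82 (SE 0.14, 0.14 and 0.13, adjusted p = 2.2e-05, 2.06e-06 and 2.65e-06) in input and 0.85, 1.01 and 0.67 (SE 0.13, 0.12 and 0.11, adjusted p = 2.56e-06, 3.46e-08 and 2.12e-05) in SC, all called. Library-size scaling lost the input calls (adjusted p = 0.0724 to 0.174) and the SC call at 18m (adjusted p = 0.275). Eif4ebp1 gave -0.41, -0.08 and -0.47 in input and 0.77, 0.10 and -0.13 in SC, none called, at 2.70, 1.65, 3.45 and 1.92 CPM in SC SYN at 5m and 1.98, 2.01, 2.06 and 3.03 in SC TH. Its value passed in SC at 3w without mouse 189 or 197 (adjusted p = 0.0228 to 0.0433) and in input at 18m without mouse 196 (adjusted p = 0.00843).

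Eif5a gave 0.18, 0.26 and 0.15 in input (adjusted p = 0.0669, 0.00668 and 0.104) and 0.16, -0.05 and -0.33 in SC (adjusted p = 0.104, 0.607 and 0.00158), from 120.4, 103, 116 and 113 CPM in input SYN at 5m and 89.6, 97.9, 96.6 and 94.0 in input TH. Under library-size scaling the input values became -0.40, -0.39 and -0.43 and the SC value at 3w -0.39, all called lower. The GC and length correction turned input at 5m to -0.044 and SC at 3w to -0.24, and without the filter on low counts the input call at 5m was lost (adjusted p = 0.103). The input call at 5m was lost without mouse 191 (adjusted p = 0.0743), and the values at 3w and 18m passed without mouse 189 (adjusted p = 0.0133) and mouse 197 (adjusted p = 0.0446). Its brain-rich paralogue Eif5a2 gave -0.24, -0.54 and 0.14 in input (adjusted p = 0.15, 0.00155 and 0.328) and -0.37, -0.77 and -0.51 in SC (adjusted p = 0.0646, 0.000161 and 0.00692). The 3w value in SC was called with the mouse as a block (adjusted p = 0.0368) and without mouse 189 or 198 (adjusted p = 0.0447 to 0.0449). The 18m call in SC was lost without mouse 197 (adjusted p = 0.0535). With the correction for GC content and length and the mouse as a block its direction changed. The SC value at 3w turned to 0.35 and was called higher (adjusted p = 0.0198), the SC calls at 5m and 18m were lost (adjusted p = 0.454 and 0.382), and the input values became 0.41, 0.24 and 0.59. Its input level at 5m was 22.9, 17.5, 19.3 and 23.7 CPM in SYN and 26.4, 32.6, 32.7 and 31.5 CPM in TH.

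TOP members and ribosomal protein genes were mostly higher in SYN under TMM. Of 9 TOP members, input gave 7, 8 and 7 higher and 1, 1 and 0 lower of 9 tested, with medians of 0.63, 0.55 and 0.60, and SC gave 6, 7 and 6 higher and none lower of 9 tested, with medians of 0.85, 0.93 and 0.60. Cytosolic ribosomal protein genes, the largest TOP group, gave 69, 74 and 71 higher and 1, 1 and 0 lower of 85 tested in input (medians 0.94, 1.20 and 0.86) and 78, 78 and 60 higher and 0, 0 and 1 lower of 84 tested in SC (medians 1.15, 0.92 and 0.61). These counts are relative to TMM, whereas library-size scaling gives the split of the members stated above. Genes of other lists were mixed in input at 5m. There were 4 higher and 3 lower of 11 mTORC1 signalling genes and 2 higher and 2 lower of 7 integrated stress response genes. There were 1 higher and 0 lower of 8 regulators of eIF4E and eIF4A and 4 higher and 2 lower of 8 poly(A)-binding genes. There were 0 higher and 4 lower of 6 termination and recycling genes and 1 higher and 4 lower of 9 mitochondrial translation factors.

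Many of these calls were made at each age. At all 3 ages 16 members were called higher and 8 lower in input, and 9 higher and 6 lower in SC. The 8 include Eef1akmt3, which was near the limit of detection. The sign was the same at the 3 ages in 54 of 65 members in input and in 38 of 64 in SC, although the ages rest on different mice. At single ages 71% to 72.7% of all genes passed in input and 62.1% to 67.8% in SC. How often calls and signs recurred over all genes was not counted, so these counts do not set the members apart. Input and SC values of a comparison come from the same animals. At 5m, 10 members were called higher and 10 lower in both input and SC, and 3 were higher in input and lower in SC, namely Eef1a2, Eif1b and Eif4g1. These opposite directions rest on TMM, since under library size the input value of Eef1a2 was 0.08 and not called, that of Eif1b -0.28 and not called, and that of Eif4g1 -0.26 and called lower.

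**Figure D3:**
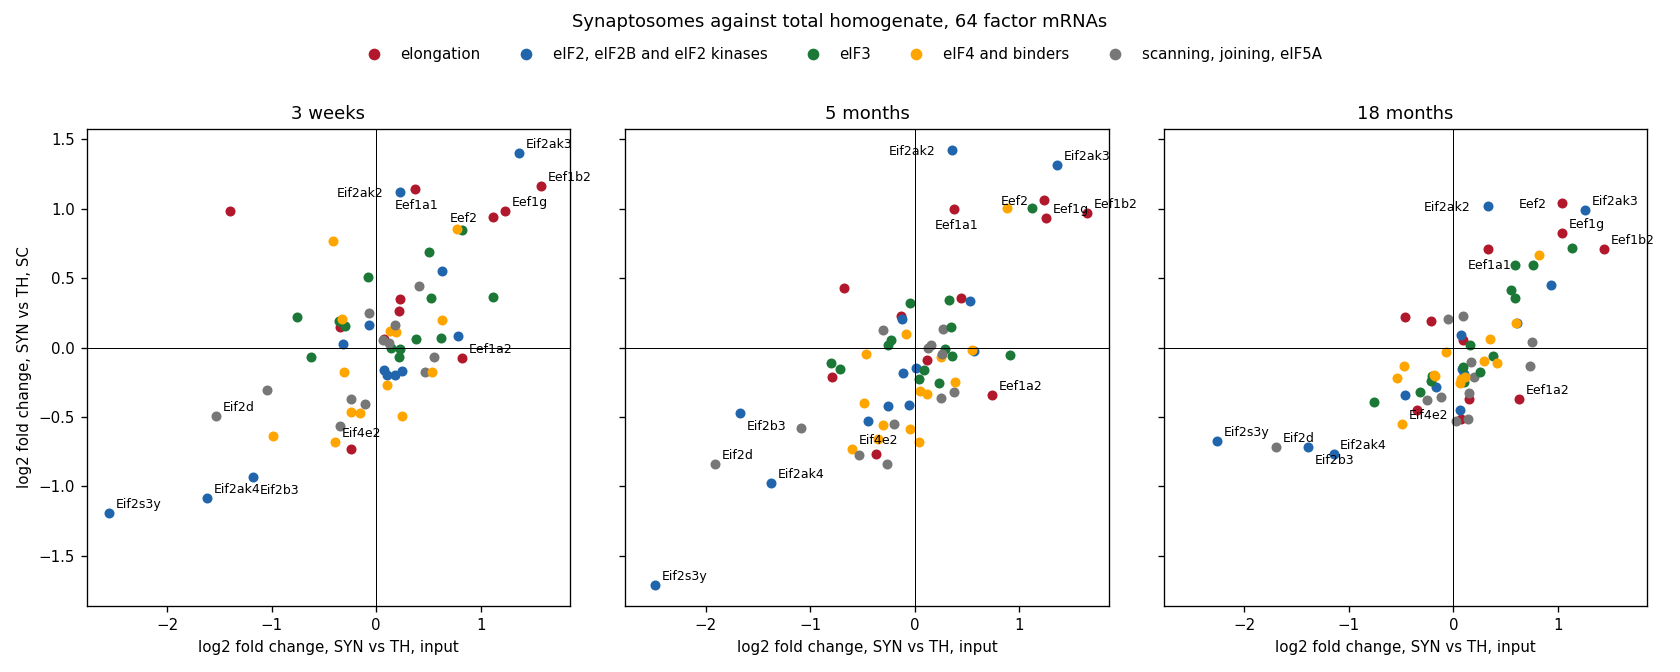
Log2 fold change of SYN over TH in input RNA (horizontal axes) and in SC RNA (vertical axes) for 64 members at 3w, 5m and 18m, 1 panel per age and 1 point per gene. Eef1b2, Eef2, Eef1g and Eif2ak3 lie at the upper right at each age, Eif2ak4 and Eif2d at the lower left, and Eef1a2 is at 0.74 in input and -0.34 in SC at 5m.

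The second comparison asked which factor mRNAs were relatively abundant in the ribosome pellet. In TH, 37, 38 and 40 of 65 members were higher in SC than in input at 3w, 5m and 18m and 11, 15 and 7 were lower, where 52.8%, 62.1% and 64% of all genes passed. The median log2 fold change of members was 0.27, 0.31 and 0.34, against -0.05, -0.05 and -0.01 over all genes. Of all genes 26.1%, 29.9% and 31.3% were higher in the TH pellet and 26.6%, 32.2% and 32.7% lower. In SYN, 17, 14 and 9 of 64 members were higher in SC and 3, 2 and 2 lower, where 18.5%, 20% and 12.6% of all genes passed, with medians of 0.25, 0.21 and 0.22 against 0.01, 0.01 and 0.02. Of all genes 9.04%, 9.66% and 5.88% were higher in the SYN pellet and 9.50%, 10.3% and 6.70% lower. In SYN at 5m the GC and length correction gave 10 members higher and 5 lower. TH lysates were cleared by centrifugation before the cushion, a step not described for SYN, and nuclear RNAs moved the other way in TH. Their 6 genes summed to 7519 to 11132 CPM in SC TH at 5m against 18520.1 to 18924 in input TH. The part of nuclear RNA in the members' shift was not tested. Over the members, Spearman's rho of this fold change with exonic length was -0.28, -0.32 and -0.41 in TH across 65 genes, which share the same libraries.

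Eef1a2 had the highest SC over input fold change of the members in TH at each age. It stood at 389.5, 454, 422 and 451 CPM in input TH and at 952, 956, 1061 and 1081 in SC TH at 3w, and at 454, 519.6, 454 and 505 against 1366, 1275, 1189 and 1143 at 18m. All SC libraries were above all input libraries of their age. The log2 fold changes were 1.25, 1.44 and 1.38 (SE 0.07, 0.07 and 0.07, adjusted p = 1.06e-13, 4.87e-15 and 5.76e-15) in TH, and 0.27, 0.31 and 0.33 (SE 0.09, 0.09 and 0.09, adjusted p = 0.0319, 0.0121 and 0.0122) in SYN. Eef1a1 gave -0.33, -0.21 and -0.05 (SE 0.08, 0.08 and 0.08, adjusted p = 0.000885, 0.0216 and 0.578) in TH and 0.37, 0.37 and 0.28 (SE 0.10, 0.10 and 0.09, adjusted p = 0.00862, 0.00672 and 0.0485) in SYN. Its calls were lower in TH at 3w and 5m and higher in SYN at all ages. The SYN calls of Eef1a1 were lost without mouse 188 (adjusted p = 0.086) at 3w, without mouse 192 or 193 (adjusted p = 0.0637 to 0.0651) at 5m and without mouse 187, 189, 190, 191, 192, 193, 195, 196, 197 or 198 (adjusted p = 0.0513 to 0.219) at 18m. Its TH call at 5m was lost without mouse 192 or 193 (adjusted p = 0.066 to 0.154) and without the filter on low counts (adjusted p = 0.0785). With the GC and length correction the SYN calls of Eef1a2 were lost at all 3 ages (adjusted p = 0.317, 0.542 and 0.144) and those of Eef1a1 at 3w and 18m (adjusted p = 0.146 and 0.15). The SYN calls of Eef1a2 were lost without mouse 187, 188, 189, 190 or 194 (adjusted p = 0.0511 to 0.169) at 3w, without mouse 192 or 194 (adjusted p = 0.0535 to 0.114) at 5m and without mouse 196 or 198 (adjusted p = 0.055 to 0.0628) at 18m. Eef2 gave 0.25, 0.42 and 0.33 in TH (adjusted p = 0.000473, 3.15e-07 and 8.32e-06) and -0.01, 0.20 and 0.29 in SYN (adjusted p = 0.978, 0.14 and 0.0429). With the mouse as a block the SYN calls at 18m were lost, with an adjusted p of 0.0542 for Eef1a1 and 0.0537 for Eef2. Without the filter on low counts both were lost too (adjusted p = 0.103 and 0.095), as was the Eef1a2 call at 3w (adjusted p = 0.0654), and the GC and length correction lost that of Eef2 (adjusted p = 0.0891). The Eef2 call was also lost without mouse 187, 188, 189, 190, 192, 194, 195, 196 or 197 (adjusted p = 0.0503 to 0.242).

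Most eIF3 genes that passed were higher in the pellet. The 14 subunit genes gave 7, 8 and 10 higher and 3, 2 and 0 lower of 14 tested in TH and 6, 4 and 3 higher and none lower of 14 tested in SYN. Eif3g, an RNA-binding subunit, stood at 63.9, 86.8, 75.3 and 77.1 CPM in SC TH at 5m against 33.3, 33.5, 30.9 and 30.9 in input TH, with log2 fold changes of 1.09, 1.23 and 1.00 (SE 0.10, 0.10 and 0.09, adjusted p = 7.01e-10, 2.25e-11 and 4.72e-10) in TH. In SYN its values were 0.69, 0.77 and 0.61 (SE 0.16, 0.16 and 0.15, adjusted p = 0.00421, 0.00115 and 0.00971), from 83.0, 69.0, 59.6 and 73.3 CPM in SC and 46.9, 45.1, 35.4 and 36.1 in input at 5m. The SYN calls were lost without mouse 188 (adjusted p = 0.0528) at 3w and mouse 198 (adjusted p = 0.131) at 18m, and at both ages with the GC and length correction (adjusted p = 0.0786 and 0.0639). The scaffold Eif3c stood at 187, 176, 166 and 171 CPM in SC TH and 89.1, 91.9, 95.6 and 98.9 in input TH at 5m. It gave 0.88, 0.90 and 1.00 in TH (SE 0.06, 0.06 and 0.06) and 0.52, 0.60 and 0.52 in SYN (SE 0.09, 0.09 and 0.09), all called. Eif3c, Eif3d and Eif3g were called higher in SYN as in TH at all 3 ages.

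Eif3e, a TOP member, went the other way in TH at 3w and 5m, with -0.49, -0.52 and 0.23 (adjusted p = 0.00664, 0.00143 and 0.119), and the call at 5m was lost with the GC and length correction (adjusted p = 0.426). Eif4a3, the helicase of the exon junction complex, stood at 37.3, 50.1, 39.8 and 39.3 CPM in SC TH and 20.1, 21.6, 21.2 and 20.8 in input TH at 5m. It gave 0.94, 0.98 and 0.91 in TH (SE 0.09, 0.08 and 0.08) and 0.87, 0.58 and 0.54 in SYN (SE 0.17, 0.17 and 0.16), all called. The SYN call at 18m was lost with the mouse as a block (adjusted p = 0.0529) and without mouse 196 or 198 (adjusted p = 0.0971 to 0.277). The GC and length correction lost the SYN calls at 5m and 18m (adjusted p = 0.227 and 0.132). Among the 4 eIF2 genes, TH gave 3 higher at each age and 1 lower at each age of 4 tested, with Eif2s1 at 0.92, 0.69 and 0.87 (SE 0.12, 0.11 and 0.11) and Eif2s3y at -0.98, -1.42 and -1.11 (SE 0.15, 0.14 and 0.14). Eif5a gave 0.51, 0.71 and 0.74 in TH (SE 0.06, 0.06 and 0.06), all called, and 0.42, 0.35 and 0.24 in SYN (adjusted p = 0.00576, 0.0169 and 0.134). The call at 5m was lost without mouse 191 or 192 (adjusted p = 0.0759 to 0.0764) and with the GC and length correction (adjusted p = 0.344). Eif2s1 in SYN at 18m (0.54, adjusted p = 0.0852) passed without mouse 195 (adjusted p = 0.0449).

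Members lower in the pellet in TH at all 3 ages were Eif2ak4, Eif2d, Eif2s3y, Eif4e3 and Eif4ebp2. Eif4ebp2 stood at 11.1, 13.4, 15.3 and 12.7 CPM in SC TH and 19.3, 21.2, 19.9 and 21.6 in input TH at 3w, with -0.61, -0.40 and -0.34 (SE 0.11, 0.09 and 0.09, adjusted p = 2.08e-05, 0.000532 and 0.0021). In SYN its log2 fold changes were -0.59, -0.32 and -0.51 (adjusted p = 0.0113, 0.135 and 0.0233), and the calls were lost without mouse 188 (adjusted p = 0.128) at 3w and, at 18m, without the filter on low counts (adjusted p = 0.0702) and without mouse 195, 196 or 198 (adjusted p = 0.0548 to 0.117). Eif4e3, a divergent cap-binding paralogue, stood at 8.65, 7.61, 6.97 and 6.94 CPM in SC TH and 14.3, 12.1, 12.0 and 14.5 in input TH at 5m and gave -0.77, -0.80 and -0.85 in TH (SE 0.13, 0.12 and 0.12). Eif4g3, an eIF4G scaffold, was lower in the SYN pellet at 3w and 18m, with -0.34 and -0.39 (adjusted p = 0.0235 and 0.0121). Eif5b, the subunit-joining GTPase, was lower there at 5m with -0.72 (adjusted p = 0.0132), from 21.5, 22.4, 20.6 and 27.6 CPM in SC and 43.8, 38.2, 34.1 and 32.7 in input. The Eif4g3 calls were lost without the filter on low counts (adjusted p = 0.179 and 0.0824), that at 3w under library size (adjusted p = 0.0593) and the GC and length correction (adjusted p = 0.0717), and also without mouse 187, 188 or 189 (adjusted p = 0.0635 to 0.113) at 3w and without mouse 195 or 196 (adjusted p = 0.0515 to 0.0872) at 18m. The Eif5b call was lost without mouse 191, 192 or 193 (adjusted p = 0.0508 to 0.115).

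Other members had calls at some ages, many of them lost when a mouse was left out. Eef2k gave 0.09, 0.06 and -0.07 in TH, none called, and 0.50, 0.37 and 0.29 in SYN (adjusted p = 0.0104, 0.0461 and 0.147). The call at 5m was lost with the mouse as a block (adjusted p = 0.0637) and without mouse 187, 188, 189, 190, 191, 193, 194, 195 or 198 (adjusted p = 0.056 to 0.242). The call at 3w was lost without mouse 187 or 188 (adjusted p = 0.0563 to 0.075). Eif4e gave 0.34, 0.07 and 0.45 in TH (adjusted p = 0.00488, 0.513 and 0.000132), with the 3w call lost without mouse 188 (adjusted p = 0.127). Eif2b3 gave -0.36, -0.47 and -0.10 in TH (adjusted p = 0.0276, 0.00192 and 0.482, with 0.0518 at 3w with the mouse as a block and 0.0635 without the filter on low counts), Eif5a2 -0.05, -0.19 and 0.31 (adjusted p = 0.745, 0.13 and 0.0162), and Eif4ebp1 -0.57, 0.06 and 0.03, none called. The TH calls of Eif2b3 at 3w and of Eif5a2 at 18m were lost without mouse 187 or 190 (adjusted p = 0.0997 to 0.195) and without mouse 196 or 198 (adjusted p = 0.0561 to 0.0657). Eif2ak2 in SYN at 3w, at 9.80, 11.4, 10.7 and 10.0 CPM in SC and 4.19, 7.96, 4.42 and 3.85 in input, with 0.95 (adjusted p = 0.0189), lost its call without mouse 187, 189 or 190 (adjusted p = 0.075 to 0.111). Eif2b2 in SYN at 5m, with 0.64 (adjusted p = 0.00688), lost its call without mouse 192 (adjusted p = 0.0625) and with the GC and length correction (adjusted p = 0.118). Eif3j2 gave 1.03 in TH at 3w (SE 0.18), with its reads shared with Eif3j1. Eif4g1 was lower in the SYN pellet at 3w with -0.31 (adjusted p = 0.0426), a call lost with the mouse as a block (adjusted p = 0.0675), under library size (adjusted p = 0.1), without the filter on low counts (adjusted p = 0.235), with the GC and length correction (adjusted p = 0.194) and without mouse 187, 188, 189, 190, 193 or 196 (adjusted p = 0.0514 to 0.145).

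Ribosomal protein genes were more often lower than higher in the pellet. They gave 20, 20 and 22 higher and 47, 38 and 31 lower of 85 tested in TH (medians -0.33, -0.09 and -0.12) and 0, 1 and 0 higher and 21, 38 and 27 lower of 84 tested in SYN (medians -0.38, -0.49 and -0.42). The 9 TOP members gave 5, 6 and 6 higher and 2, 2 and 0 lower of 9 tested in TH (medians 0.24, 0.29 and 0.24) and 1, 1 and 2 higher and none lower of 9 tested in SYN (medians -0.01, 0.07 and 0.10). The 6 termination and recycling genes gave 6, 5 and 6 higher and none lower of 6 tested in TH, and the regulators of eIF4E and eIF4A 6, 6 and 7 higher and 1 lower at each age of 8 tested. Among other lists in TH, mTORC1 genes gave 6, 6 and 5 higher and 3, 2 and 2 lower of 11 tested. The integrated stress response list gave 2, 4 and 3 higher and 2, 1 and 1 lower of 8 tested. Poly(A)-binding genes gave 5, 5 and 4 higher and 1, 1 and 0 lower of 8 tested, and mitochondrial factors 3, 4 and 4 higher and 0, 2 and 2 lower of 9 tested.

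**Figure D4:**
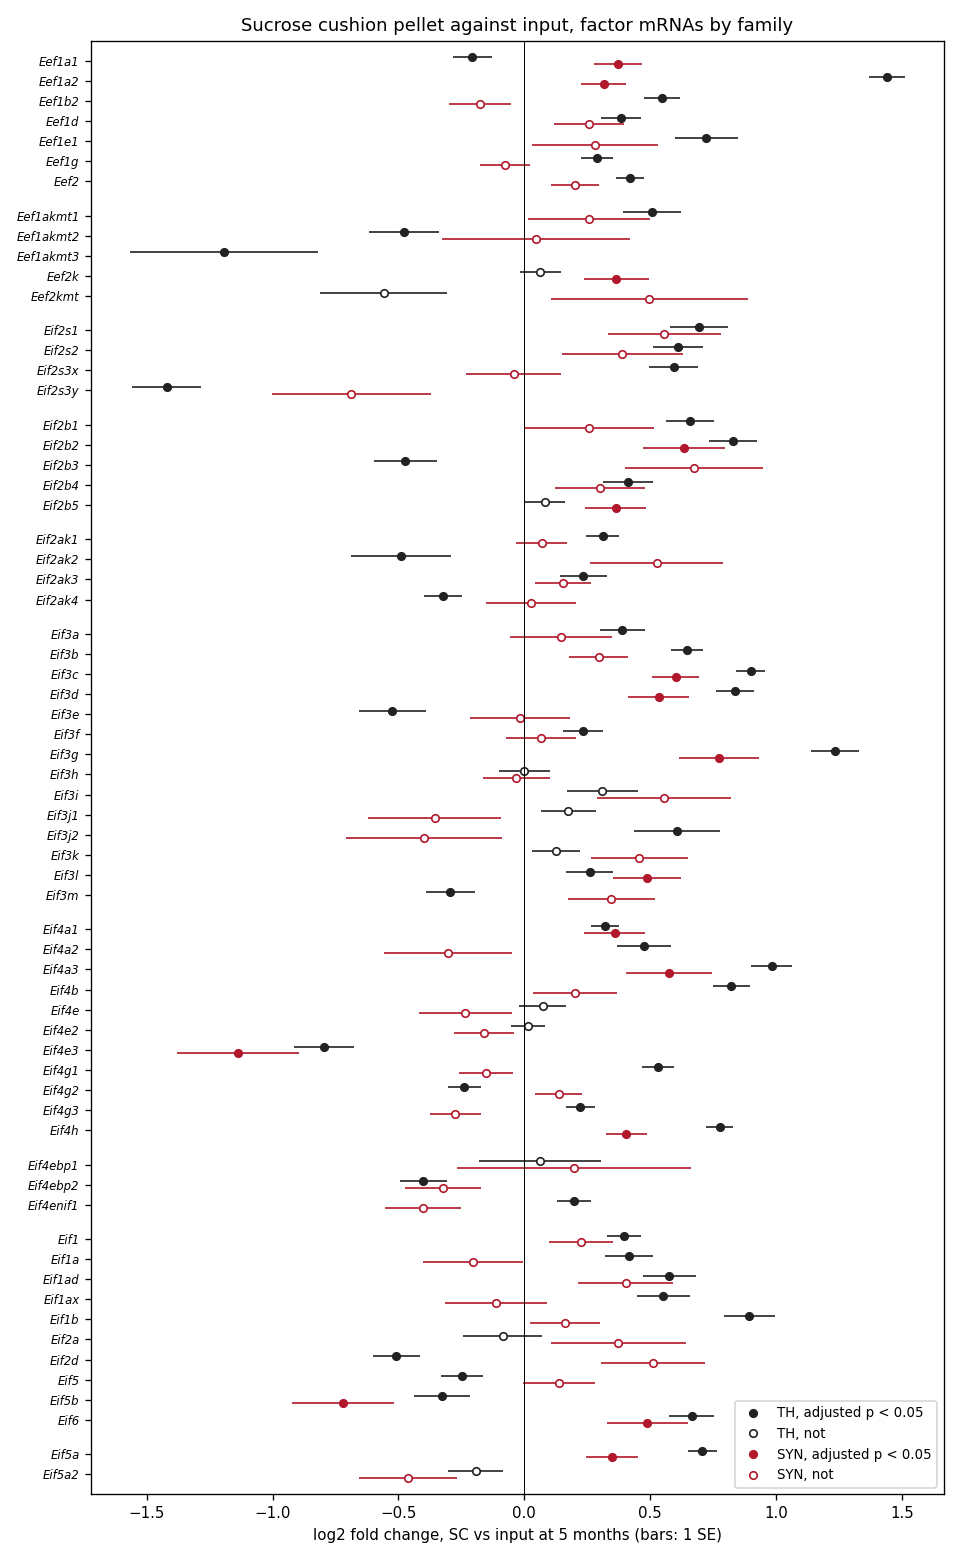
Log2 fold change of SC over input at 5m (horizontal axis) for members grouped by family, in TH and in SYN; points are genes with bars of 1 SE, filled where the adjusted p is under 0.05. Eef1a2 is at 1.44 in TH and 0.31 in SYN, and Eif3g at 1.23 and 0.77.

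The third comparison asked how the factor mRNAs change with age. In the ribosome pellet of synaptosomes, 1 of 64 members rose and 1 fell from 3w to 5m, where 8.05% of all genes passed (1 and 2 under library size, 1 and 3 with the GC and length correction). None passed from 5m to 18m, where 0.014% of all genes did (DESeq2 called 0 members and 322 of all genes). By edgeR, 9 of 64 members and 2474 of 14240 genes had an unadjusted p under 0.05 there. Eif4ebp2 stood at 24.8, 21.2, 23.4 and 22.7 CPM at 3w, 33.6, 31.4, 34.6 and 33.4 at 5m and 20.3, 30.2, 28.4 and 25.5 at 18m. It rose by 0.48 on the log2 scale from 3w to 5m (SE 0.13, adjusted p = 0.0311), a call lost without the filter on low counts (adjusted p = 0.0508). Eif3j1 stood at 24.4, 50.2, 45.2 and 30.1 CPM at 3w and 18.8, 21.5, 17.4 and 23.0 at 5m, a log2 fold change of -0.93 (SE 0.25, adjusted p = 0.0344), and its reads cannot be told with certainty from those of Eif3j2. The Eif4ebp2 call was lost without mouse 188, 189, 190, 191, 192, 193 or 194 (adjusted p = 0.0565 to 0.0951), and that of Eif3j1 without mouse 188, 189, 191, 192, 193 or 194 (adjusted p = 0.0599 to 0.104).

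In the TH pellet 3 of 64 members rose and 1 fell from 3w to 5m, where 17.9% of all genes passed (3 and 2 by DESeq2 and under library size). Eif3k, the small peripheral subunit of eIF3, stood at 22.2, 18.5, 28.1 and 27.0 CPM at 3w and 41.9, 34.7, 31.1 and 41.7 at 5m, with no overlap, and at 44.4, 45.2, 48.9 and 51.4 at 18m. It rose by 0.65 (SE 0.13, adjusted p = 0.00365). Eef1akmt2, a lysine methyltransferase of eEF1A, stood at 8.92, 7.45, 6.81 and 9.64 CPM at 3w and 4.08, 5.02, 5.59 and 4.89 at 5m, and fell with a log2 fold change of -0.73 (SE 0.17, adjusted p = 0.0077).

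Eef1e1, also known as the tRNA synthetase complex protein p18, rose by 0.54 in the TH pellet (SE 0.15, adjusted p = 0.0196), from 8.01, 6.50, 9.39 and 9.91 to 12.5, 13.6, 12.6 and 10.4 CPM, a call lost without mouse 187 or 188 (adjusted p = 0.059 to 0.0748). Eef1a2 rose by 0.22 (SE 0.07, adjusted p = 0.0377), from 952, 956, 1061 and 1081 to 1179.6, 1251, 1111 and 1171 CPM. It became -0.016 with the correction for GC content and length, and its call was lost without mouse 187, 188, 191, 192 or 194 (adjusted p = 0.0605 to 0.117). Some changes passed only when a mouse was left out. Eef2, at 0.17, passed without mouse 192 (adjusted p = 0.0376), Eif4ebp2, at 0.35, without mouse 189, 192 or 193 (adjusted p = 0.0353 to 0.0482), and Eif5a2, at 0.30, without mouse 188 (adjusted p = 0.0498). From 5m to 18m no member passed in the TH pellet, where 2.17% of all genes did (DESeq2 called 2 members). By edgeR, 9 of 64 members and 2878 of 16427 genes had an unadjusted p under 0.05 there. Beside these members, 31 of 84 ribosomal protein genes rose in the TH pellet from 3w to 5m and none fell. Of all genes 9.48% rose there and 8.46% fell.

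In input TH, 2 of 65 members rose and 1 fell from 3w to 5m, where 11.8% of all genes passed (2 and 2 by DESeq2, 5 and 1 under library size). Eif5a2 stood at 22.8, 21.6, 21.6 and 25.6 CPM at 3w and 26.4, 32.6, 32.7 and 31.5 at 5m and rose by 0.42 (SE 0.10, adjusted p = 0.009). Eif3k rose by 0.23 (adjusted p = 0.0143), from 27.9, 31.2, 28.7 and 30.0 to 34.4, 35.7, 34.1 and 34.0 CPM, a call lost without mouse 187, 189 or 192 (adjusted p = 0.0511 to 0.0557). Eif4h, a helper of eIF4A, stood at 189, 208, 197 and 188 and 172, 172, 171 and 173 CPM, and fell with -0.19 (adjusted p = 0.0155), a call lost without mouse 188 (adjusted p = 0.0547).

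From 5m to 18m, 6 members rose and 4 fell in input TH, where 15.5% of all genes passed. The balance depends on the scaling, with 3 higher and 8 lower under library size, 6 and 6 by DESeq2 and 1 and 0 with the GC and length correction. Those that rose were Eif3g (0.32 on the log2 scale), Eif6 (0.31), whose product keeps the large subunit from joining the small one too early, Eef1d (0.23), Eif4g1 (0.22), Eif4h (0.17) and Eef2 (0.15). Those that fell were Eif2s3y (-0.61), Eif5a2 (-0.44), the scanning factor Eif1ax (-0.36) and Eif4g2 (-0.24). With the correction for GC content and length Eif4g1 alone remained called. It stood at 258, 255, 254 and 255 CPM at 5m and 286, 301, 286 and 314 at 18m (SE 0.05, adjusted p = 0.007).

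Eif3g stood at 33.3, 33.5, 30.9 and 30.9 CPM at 5m and 34.9, 43.6, 39.0 and 42.8 at 18m in input TH (adjusted p = 0.0113), and Eif2s3y at 26.2, 24.2, 24.8 and 22.8 and 18.1, 14.8, 19.3 and 11.7 (adjusted p = 0.00452), with no overlap in either. Eif1ax stood at 66.8, 76.0, 77.0 and 75.9 and 65.6, 52.8, 56.8 and 55.1 CPM (adjusted p = 0.00528). Eif6 went from 23.0, 20.5, 21.5 and 19.1 to 23.8, 30.0, 24.4 and 26.2 CPM (adjusted p = 0.0262), a call lost without mouse 192, 193, 194, 196 or 198 (adjusted p = 0.0525 to 0.0942). Eef1d, an eEF1B subunit, went from 53.1, 51.4, 43.8 and 46.5 to 53.3, 61.7, 53.7 and 59.3 CPM (adjusted p = 0.0484), a call lost without mouse 189, 190, 192, 193, 194, 196 or 198 (adjusted p = 0.0565 to 0.145). The ranges of Eif5a2 at 5m (26.4 to 32.7 CPM) and 18m (19.5 to 26.8 CPM) overlapped. The calls of Eef2 and Eif4g2 were lost without mouse 192, 193, 194, 196 or 198 (adjusted p = 0.0688 to 0.1) and without mouse 194 or 198 (adjusted p = 0.0547 to 0.0566), and Eif4e (-0.19) passed without mouse 191 (adjusted p = 0.0312).

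In input SYN no member passed from 3w to 5m, where 3.22% of all genes did, or from 5m to 18m, where 0.139% did. By edgeR, 7 and 3 of 62 members had an unadjusted p under 0.05, beside 2197 and 1214 of 12975 genes. DESeq2 called 0 and 0 members. Oligodendrocyte markers moved with age in the same libraries. Of 8 such genes, 7 fell in SC SYN, SC TH and input SYN and 8 in input TH from 3w to 5m, and their sum in SC SYN was 8614 to 10499 CPM at 3w and 3481 to 3793 CPM at 5m. In SC SYN 5 of 8 microglia markers rose over the same interval, with sums of 561 to 630.4 CPM at 3w and 961 to 1188 CPM at 5m. The part of these cell types in the members' age differences was not tested.

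Members with central roles that passed no age test in synaptosomes are given by their values. In SC SYN at 3w, 5m and 18m, Eef1a1 averaged 1206 ± 168, 1277 ± 102 and 1167 ± 66.4 CPM (SD, n = 4), Eef1a2 926 ± 78.2, 913 ± 95.3 and 938 ± 31.9, and Eef2 1232 ± 58.5, 1538 ± 148 and 1552 ± 204. Eef2k averaged 43.8 ± 1.41, 49.1 ± 3.19 and 44.3 ± 1.46 CPM. Eif4e averaged 40.2 ± 7.64, 36.2 ± 8.73 and 50.5 ± 6.29 CPM, and Eif2s1 18.6 ± 3.81, 14.3 ± 3.02 and 17.6 ± 2.33. For Eef2 the log2 fold changes were 0.28 (SE 0.12) from 3w to 5m and 0.05 (SE 0.12) from 5m to 18m. Missing the threshold does not show that these levels were equal.

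Whether pelleting or the SYN to TH distance itself changed with age was tested as an interaction. In TH the SC over input difference changed from 3w to 5m for 1 of 65 members, where 2.33% of all genes passed, and from 5m to 18m for 3, where 1.78% passed. The nuclear RNAs of the pellet moved with age in the same libraries. Their sum was 10509 to 13841, 7519 to 11132 and 5323 to 6361 CPM in SC TH at 3w, 5m and 18m, and 18133 to 19424, 18520.1 to 18924 and 16672 to 17929 in input TH. Their part in these interactions was not tested. Eef1akmt2 was the member of the earlier interval, with a change of -0.92 (SE 0.20, adjusted p = 0.0192), beside the fall in the pellet given above, and input TH stood at 6.11, 6.03, 5.82 and 5.98 CPM at 3w and 5.92, 6.11, 6.69 and 8.26 at 5m. The call was lost without mouse 187, 188 or 194 (adjusted p = 0.0765 to 0.103) and with the GC and length correction (adjusted p = 0.0973). Eif4g1 changed by -0.51 (SE 0.09, adjusted p = 0.00674) from 5m to 18m, with 318, 418, 379.6 and 362 CPM in SC TH at 5m and 287, 316, 289 and 300.1 at 18m beside the rise in input given above. This was the 1 interaction of a member that was called under all 4 scalings.

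Eif4g2, which encodes the eIF4G relative DAP5 that lacks the eIF4E-binding site, changed by 0.38 (SE 0.09, adjusted p = 0.0348) in TH. It stood at 361, 381, 358 and 389.8 CPM in input TH at 5m, and 341, 305, 328 and 289 at 18m. In SC TH it stood at 336, 324, 284 and 317 CPM at 5m and 323, 334, 377 and 344 at 18m. Eif3e changed by 0.76 (SE 0.19, adjusted p = 0.0363). It stood at 20.6, 23.6, 23.5 and 19.7 CPM in input and 19.2, 12.2, 13.2 and 15.0 in SC at 5m, and at 22.3, 16.4, 17.1 and 15.0 CPM in input and 17.1, 19.8, 25.3 and 20.2 in SC at 18m. The calls were lost without mouse 192, 193, 194, 196, 197 or 198 (adjusted p = 0.0963 to 0.172) for Eif3e and without mouse 192, 193, 194, 196, 197 or 198 (adjusted p = 0.0841 to 0.134) for Eif4g2. Both were also lost with the GC and length correction (adjusted p = 0.159 and 0.103). Eif5a2 (0.50) passed without mouse 191 (adjusted p = 0.0391). In input, the SYN over TH difference of Eif4g2 changed by 0.40 (SE 0.10, adjusted p = 0.0364) from 5m to 18m, where 2.42% of all genes passed. Beside it, input SYN stood at 249.6, 252, 271 and 299 CPM at 5m and 287, 303, 286 and 320.4 at 18m. It was the 1 member called. With the mouse as a block 2 were called, Eif5a2 besides with a change of 0.70 and an adjusted p of 0.0271. The Eif4g2 call was lost without the filter on low counts (adjusted p = 0.0714), with the GC and length correction (adjusted p = 0.72) and without mouse 191, 192, 193, 194, 196 or 198 (adjusted p = 0.0533 to 0.132). Eif5a2 passed without mouse 191 (adjusted p = 0.0474). The Eif4g2 interactions in TH and between SYN and TH share the input TH libraries.

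No member passed in the other 5 interaction tests. They were the SC over input change in SYN from 3w to 5m and from 5m to 18m (0% and 0% of all genes passed), the SYN over TH change in input from 3w to 5m (0.0224%), and the SYN over TH change in SC from 3w to 5m (0.0301%) and from 5m to 18m (0%). By edgeR, 2, 2, 2, 5 and 12 members had an unadjusted p under 0.05 in these tests. Of all genes 473 of 14301, 393 of 14301, 1437 of 17860, 1324 of 16630 and 2855 of 16630 did, so these counts do not set the members apart. DESeq2 called 0, 0, 0, 0 and 0 members.

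**Figure D5:**
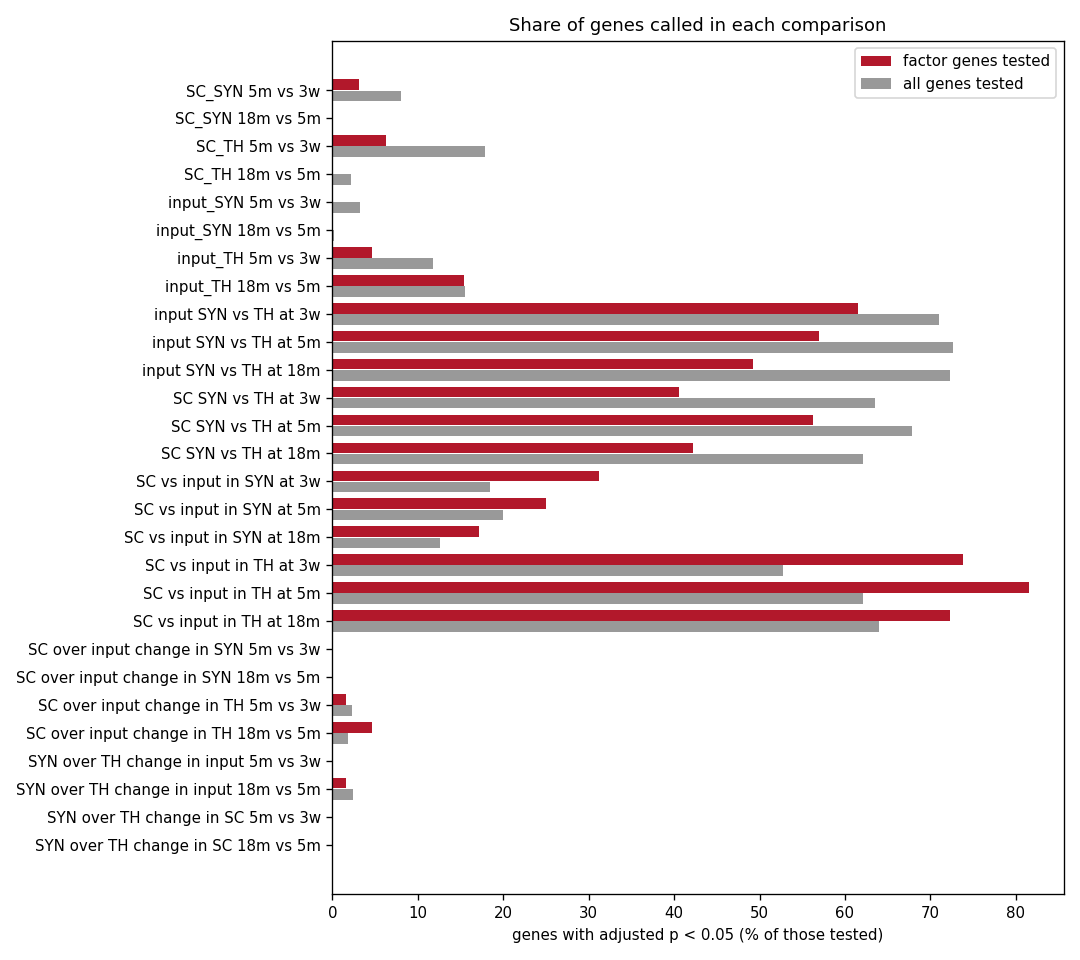
Percent of tested genes with an adjusted p under 0.05 (horizontal axis) for members and for all genes in each of the 28 comparisons. Members are above all genes in the SC against input comparisons in TH, for example 81.5% against 62.1% at 5m, and below all genes in SYN against TH, for example 56.9% against 72.7% in input at 5m.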

How the data were processed

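RNA from cortex homogenates and synaptosomes, before and after a sucrose cushion, was sequenced from 12 mice, 4 libraries per mouse. The authors made rRNA-depleted directional libraries, mapped reads with TopHat2 2.1 to GRCm38 and deposited raw counts per gene from featureCounts, counted without strand; bcl2fastq 2.20.0.422 is named in the submitters' processing notes. Whether unique molecular identifiers were used to remove duplicates is not given in the sources used here. Of 48526 genes, 48144 matched GENCODE, and the unmatched ones held 0.0596% of counts. The rule gives 68 genes, of which 67 are in the table.

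The quasi-likelihood test of edgeR 4.0.16 (run in R 4.3.3 with limma 3.58.1) was applied after TMM scaling and edgeR's filter on low counts, with Benjamini-Hochberg adjustment over all genes tested and a threshold of 0.05. Each of the 8 age comparisons was fitted on the 12 libraries of its fraction, and each of the others on the 24 libraries of the fractions compared. Log2 fold changes are those of the fitted models. A prior count of 2 entered only the log2 CPM values behind the offsets, the allowance for medians and the correlations of same-animal libraries. Fits carried no block, and p-values measure the spread between mice. Libraries of 1 animal share its number in the labels, and this pairing comes from the labels. Over all genes, deviations of same-animal libraries from their group means correlated with a median between -0.01 and 0.11 over 12 mice for the fraction pairs. The alternatives were DESeq2 1.42.0, library-size scaling, no filter on low counts, offsets for GC content and length, the mouse as a block, and leaving out each mouse. In simulated counts genes were changed by a log2 fold of 1.5, and all groups otherwise had the same mean profile. Of these genes 92.5% were called in SC SYN 5m against 3w and 93.9% in SC SYN against SC TH at 5m. In the change of SC over input from 5m to 18m 75.0% were called in SYN and 83.5% in TH. The simulated fold exceeds every age change and interaction called for a member above. Smaller folds were not simulated, so these shares do not tell how often changes of that size would be missed. The simulation changed 200 genes, as many up as down, whereas 67.8% of all genes passed in SC SYN against SC TH at 5m. Its shares therefore do not tell how calls between SYN and TH depend on scaling.

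The members and the gene lists were chosen with earlier results of these data known. Every member could be named. Full values were given for 11 genes (Eef1a1, Eef1a2, Eef2, Eef2k, Eif4e, Eif4ebp1, Eif4ebp2, Eif2s1, Eif2b3, Eif5a and Eif5a2) and for up to 3 members per direction and comparison with the largest fold change among those called, averaging 50 or more counts where they were higher and without overlap between groups. Means are given ± SD.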

Additional observations from a re-analysis of the deposited data

Results flagged for a closer look

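In 144 groups of 4 mice the highest or lowest library was set against the others by its gap to the nearest library as a share of the group's range, and read against Dixon's critical value for groups of 4. That value was passed in 9 groups, and chance gives about 1 in 20 groups, or 7.2. Eef1a1 was low in input SYN of mouse 190 (809 CPM against 951 to 961 in the other 3w mice, a gap of 0.932 of the range). Eif4e was low in input TH of mouse 188 (39.8 against 47.6 to 49.1 CPM, 0.836) and of mouse 191 (45.6 against 53.4 to 54.1 CPM at 5m, 0.923). Eef2k was high in SC TH of mouse 193 (49.4 against 40.2 to 40.5 CPM, 0.974), Eif4ebp1 in SC TH of mouse 194 (3.03 against 1.98 to 2.06 CPM, 0.92) and Eif5a in SC SYN of mouse 187 (167 against 147 to 148 CPM, 0.963). Eif2b3 was high in input SYN of mouse 193 (4.49 against 2.30 to 2.36 CPM, 0.973), where libraries held 5 to 10 counts of it. The share of counts on the members was high in input TH of mouse 195 (0.654% against 0.622 to 0.627%, 0.842) and low in input SYN of mouse 194 (0.525% against 0.547 to 0.550%, 0.847).

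Interaction terms differed from 0 for 4 members by edgeR's quasi-likelihood test, as described above. In TH the SC over input difference changed by -0.92 for Eef1akmt2 from 3w to 5m, and from 5m to 18m by 0.76 for Eif3e, -0.51 for Eif4g1 and 0.38 for Eif4g2. The SYN over TH difference of Eif4g2 in input changed by 0.40 from 5m to 18m.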

How the results depend on the processing

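Of the values under the alternatives, single members and medians together, 6534 stayed as they were, 456 of them medians. For a member this means that a call kept its direction, or that a value without a call gained none, whatever its sign. Among single members 222 calls were lost, 56 were gained in the same direction and 23 values turned, either from a call or to one. Of 468 medians, 12 moved by more than their allowance. Input SYN, with the fewest counts per library, limits the precision of low members, and SYN against TH depends on the scaling, which sets where the centre of all genes lies. The cause of the other changes was not tested.

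With library-size scaling in input SYN against TH, Eef1a1 turned to -0.20, -0.28 and -0.24 and Eif5a to -0.40, -0.39 and -0.43 at 3w, 5m and 18m, and at 18m Eif2s1 turned to -0.47, Eif4e to -0.51 and Eif5a2 to -0.43. In SC, Eef2k turned to -0.40, -0.36 and -0.34 and Eif5a at 3w to -0.39. With GC and length offsets and the mouse as a block, Eif5a2 turned to 0.41 at 3w and 0.24 at 5m in input, where at 5m Eif2s1 turned to 0.077, Eif4e to 0.11 and Eif5a to -0.044. In SC at 3w Eif2s1 turned to 0.31, Eif2s3y to 0.079, Eif5a to -0.24 and Eif5a2 to 0.35. Eef1a2 in SC TH from 3w to 5m turned to -0.016 with GC and length offsets.

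Library-size scaling gave 56 members called in place of 37 at 5m and 53 in place of 32 at 18m in input SYN against TH, and 54, 59 and 53 in place of 26, 36 and 27 in SC at 3w, 5m and 18m. GC and length offsets with the block gave 40 in place of 26 in SC SYN against TH at 3w. From 3w to 5m, the count in SC SYN was 5 by DESeq2 and 4 with GC and length offsets in place of 2, in SC TH 7 without the filter in place of 4, and in input TH 6 with library size in place of 3. From 5m to 18m, SC TH gave 2 by DESeq2, 1 with library size, 4 without the filter and 2 with the offsets in place of 0, and input TH gave 1 with the offsets in place of 10. SC against input in SYN at 18m gave 7 without the filter in place of 11. For the SC over input change in TH from 3w to 5m DESeq2 and no filter gave 2 each and offsets with the block 0, in place of 1, and from 5m to 18m offsets with the block gave 1 in place of 3. For the SYN over TH change in input from 5m to 18m the count was 3 by DESeq2, 2 with library size and without the filter, and 0 with the offsets and block, in place of 1.

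With the mouse as a block alone, this last count was 2 in place of 1. No other count of members moved by over 1.5 times under the block. Of the results of named members 8 changed their call, as given above. Over all genes tested, the block gave 664 calls in place of 429 for the SC over input change in TH from 3w to 5m and 661 in place of 432 for the SYN over TH change in input from 5m to 18m, and DESeq2 gave 1175 and 1109. DESeq2 gave 1767 in place of 1146 in SC SYN from 3w to 5m, and the offsets 952 in place of 2808 in input TH from 5m to 18m.

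Leaving out each mouse in turn gave 0 to 5 members called in SC SYN from 3w to 5m (5 without mouse 187, 1 without 190 and 0 without 188, 189 or any of 191 to 194). It gave 2 to 9 in SC TH (2 without 187, 9 without 192, and 7 without 189 or 193) and 2 to 5 in input TH (5 without 191). From 5m to 18m it gave 0 to 3 in SC TH (3 without 191) and 5 to 17 in input TH (17 without 195, and 5 or 6 without 192, 193, 194, 196 or 198). SC against input in SYN gave 8 to 21 at 3w (8 to 12 without 187, 188, 189 or 190), 7 to 16 at 5m (7 to 10 without 191, 192 or 193) and 4 to 11 at 18m (4 without 196, 6 without 198). The SC over input change in TH gave 0 to 2 from 3w to 5m (0 without 187, 188 or 194, and 2 without 189 or 192) and 1 to 6 from 5m to 18m (6 without 191, and 1 without 192, 193, 194, 196, 197 or 198). The SYN over TH change in input gave 0 to 1 from 5m to 18m (0 without 192, 193, 194, 196 or 198).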
